A study of Mus musculus with 2 samples.

Results

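Transforming growth factor beta (TGF-beta) genes were described at 3 levels of the pathway, namely the 3 ligand genes Tgfb1, Tgfb2 and Tgfb3, the 3 receptor genes Tgfbr1, Tgfbr2 and Tgfbr3, and the 4 latent binding protein genes Ltbp1, Ltbp2, Ltbp3 and Ltbp4. These 10 genes were chosen by gene symbol from the 24532 genes of the count table, and all of them passed the minimum of 5 CPM (counts relative to library size) on average that 9935 genes met. The libraries came from mouse cardiac myofibroblasts, the contractile, matrix-secreting cells of an injured heart, taken from C57BL/6 mice 3 days after myocardial infarction and grown in serum-containing medium. One culture received an siRNA against Bcat1 (siBcat1) and the other a control siRNA (siControl), each at 12.5 nM for 72 hours. Bcat1 encodes the cytosolic aminotransferase of leucine, isoleucine and valine. Each group had 1 library, so no spread between replicates and no test exist for any difference below. The labels name only 1 siRNA treatment against Bcat1, so no second one could be compared. The sources used here do not give the number of animals behind each culture.

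TGF-beta is secreted in a latent form, in which the mature dimer stays bound to its own propeptide. In most cells the propeptide is linked by disulfide bonds to a latent TGF-beta binding protein, which anchors the complex to fibrillin and fibronectin in the matrix until integrins or proteases free the ligand. The free ligand binds the type II receptor, which recruits and phosphorylates the type I receptor, and SMAD2 and SMAD3 then carry the signal to the nucleus. In the injured heart this pathway is known for turning fibroblasts into myofibroblasts and for raising matrix synthesis.

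The siBcat1 library held 104581819 counts and the siControl library 127309329 counts. Bcat1 itself had 99 counts in siBcat1, against 8891 counts in siControl, a log2 fold of -6.11 [-6.41 to -5.83]. Folds are siBcat1 over siControl in scaled counts, and brackets hold exact 95% intervals of counting error only, which take reads as independent. Fibroblast and myofibroblast markers were all measured (9 of 9), and their summed level was 12707 CPM in siBcat1 and 26037 CPM in siControl. Of these, 4 were at least 2-fold lower, beside 13.0% of all genes, and 5 lay within 2-fold. After the adjustment for transcript length described below, 1 of them (Postn) was at least 2-fold lower, beside 5.29% of all genes. The median log2 fold of the 9 markers was -0.43, and -0.62 after that adjustment, against -0.06 and 0.00 for all genes. Without the collagen genes Col1a1 and Col1a2 the sum was 4443 CPM in siBcat1 and 5444 CPM in siControl. Most of that remainder was Acta2, with 3139 CPM in siBcat1 and 3380 CPM in siControl (log2 fold -0.11). The log2 folds of the rest ran from -1.47 (Pdgfrb) and -1.19 (Postn) to 0.63 (Thy1). Of the other cell type markers, 1 of 8 for macrophages (Lyz2), 1 of 6 for endothelium (Tek), 1 of 6 for smooth muscle and pericytes (Notch3) and 1 of 6 for cardiomyocytes (Tnnt2) reached the minimum. Their summed levels, in the same order, were 29.0, 48.5, 34.7 and 10.4 CPM in siBcat1, against 10.4, 47.4, 94.0 and 46.4 CPM in siControl. Nearly all of the cardiomyocyte sum was Tnnt2, with 10.3 CPM in siBcat1 and 46.3 CPM in siControl. Lyz2 made up most of the macrophage sum, with 21.3 CPM in siBcat1 and 5.46 CPM in siControl. Of the endothelial markers, Emcn and Pecam1 were higher in siBcat1, and Tek, Cdh5, Kdr and Vwf were lower. The macrophage markers Adgre1 and Ptprc and the cardiomyocyte markers Myh6, Ryr2 and Pln had 0 counts in both libraries. The part of these markers in the results below was not tested. Fewer cells of a type and less RNA per cell cannot be told apart in these libraries.

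Levels were lower with siBcat1 in 9 of the 10 genes, and 8 lay below the median of all genes, which was itself below 0. The 9 include Ltbp1 (-0.02). Of all genes, 51.9% had a lower fold than Ltbp1 and 56.6% a lower one than Ltbp2 (0.06). The 8 include Tgfb1, at -0.062 against a median of -0.061. The number of the 10 genes that were lower was 10 with library totals, 7 under upper-quartile scaling and 6 after adjustment for transcript length. It was 5 when that adjustment used the length implied by counts and TPM (abundances scaled for length and depth). The differences lay in 2 ranges. Ltbp4, Tgfb2, Tgfb3 and Tgfbr3 were at least 2-fold lower, with log2 folds of -1.79 to -1.08. The other 6 genes lay between -0.43 and 0.06, and none of the 10 was at least 2-fold higher. Among the 9935 genes, 13.0% were at least 2-fold lower and 5.58% at least 2-fold higher. The median log2 fold was -0.40 over the 10 genes and -0.06 over all genes. The 4 lower genes thus held 1 or more members of each class, while Tgfb1, Ltbp1 and Ltbp2 lay close to the median of all genes.

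Transcript length went with the folds across the whole table. Over 9886 genes with an annotated length, which are not independent replicates and share both libraries, the Spearman correlation of log2 fold with length was -0.65. The 10 genes had lengths of 2175 bases (Tgfb1) to 6602 bases (Ltbp2), with a median of 5154 bases, and 83.2% of all genes were shorter than that median. A smooth trend on length was therefore subtracted from each fold, and the remainder is called length-adjusted. On that scale only Ltbp4 was at least 2-fold lower and no gene was at least 2-fold higher, where 5.29% of all genes were lower and 4.17% higher. The cause of the length trend was not tested.

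**Figure D1:**
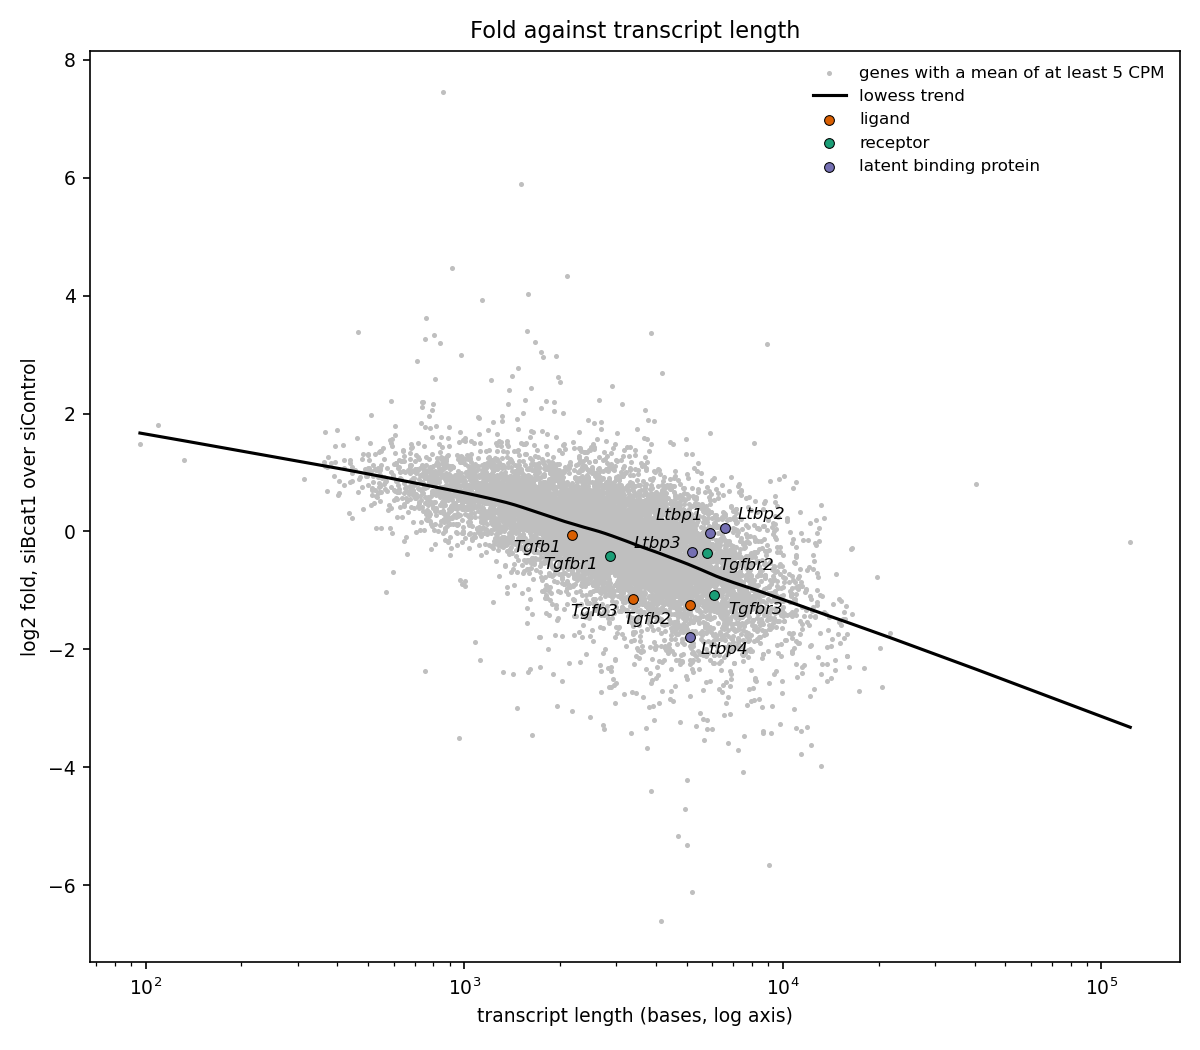
Log2 fold of siBcat1 over siControl against transcript length in bases (log axis). Each grey point is 1 gene, the line is the lowess trend, and the coloured points are the ligands, receptors and latent binding proteins. Ltbp4, Tgfb3, Tgfb2, Tgfbr1, Tgfbr3 and Tgfb1 lie below the line, with Tgfbr1 (-0.36 from it) and Tgfbr3 (-0.34) at a like distance. Tgfbr2, Ltbp3, Ltbp1 and Ltbp2 lie above it, Ltbp1 and Ltbp2 although their folds are near 0.

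Promoter sequence is shown for Tgfb1 and Tgfb2, the ligand genes with the fold closest to 0 and the lowest fold, and for Ltbp1 and Ltbp4, a pair of latent binding protein genes with folds of -0.02 and -1.79. The windows are from RefSeq on GRCm38.p6 and run from 250 bases before to 50 bases after an annotated start, and 8 of the 10 genes had a window. Capitals mark matches on either strand to TATAAA (core of the TATA box), CACGTG (an E-box), GGGCGG (core of the GC box), TGACGTCA (cyclic AMP response element), CAGAC (core of the SMAD-binding element) and CCAAT. The windows lie at chr7:25686752-25687051 on the plus strand for Tgfb1, chr1:186705940-186706239 on the minus strand for Tgfb2, chr17:75005279-75005578 on the plus strand for Ltbp1 and chr7:27337563-27337862 on the minus strand for Ltbp4. Ltbp1 has 2 windows and Ltbp4 has 3, and the one at the most upstream start is printed.
Tgfb1: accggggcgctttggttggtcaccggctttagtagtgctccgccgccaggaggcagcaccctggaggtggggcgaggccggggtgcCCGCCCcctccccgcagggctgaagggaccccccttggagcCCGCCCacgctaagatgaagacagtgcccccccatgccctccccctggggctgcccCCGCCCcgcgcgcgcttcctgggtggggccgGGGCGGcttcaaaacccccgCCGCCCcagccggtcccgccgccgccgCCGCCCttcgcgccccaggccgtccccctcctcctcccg
Tgfb2: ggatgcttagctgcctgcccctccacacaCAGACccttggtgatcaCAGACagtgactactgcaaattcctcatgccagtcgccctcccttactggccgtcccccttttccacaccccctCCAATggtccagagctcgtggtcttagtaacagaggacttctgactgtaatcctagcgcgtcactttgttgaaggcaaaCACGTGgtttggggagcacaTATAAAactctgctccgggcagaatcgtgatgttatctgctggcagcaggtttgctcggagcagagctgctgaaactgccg
Ltbp1: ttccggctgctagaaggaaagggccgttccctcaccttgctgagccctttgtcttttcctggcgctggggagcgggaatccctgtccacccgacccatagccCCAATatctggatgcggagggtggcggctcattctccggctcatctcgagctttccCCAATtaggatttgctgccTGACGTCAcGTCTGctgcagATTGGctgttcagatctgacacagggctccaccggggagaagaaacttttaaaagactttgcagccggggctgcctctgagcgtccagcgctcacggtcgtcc
Ltbp4: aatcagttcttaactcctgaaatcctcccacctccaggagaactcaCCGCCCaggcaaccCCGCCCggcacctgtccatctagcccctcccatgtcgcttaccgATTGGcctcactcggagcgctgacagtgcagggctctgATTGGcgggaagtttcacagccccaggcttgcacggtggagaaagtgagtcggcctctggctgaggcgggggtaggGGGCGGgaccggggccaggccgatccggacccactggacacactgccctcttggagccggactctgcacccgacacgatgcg

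The Tgfb1 window was 77.0% G and C and held 6 GC box cores and none of the other motifs. The Tgfb2 window was 54.3% G and C and held a TATA box core 31 bases before the start, an E-box 51 bases before it, 2 SMAD-binding element cores and 1 CCAAT. The Ltbp1 window held the cyclic AMP response element 73 bases before the start, 1 SMAD-binding element core and 3 CCAAT matches, and the Ltbp4 window held 3 GC box cores and 2 CCAAT matches. Marked matches do not overlap each other in these windows. Among 32851 windows of the same length, 13.6% held the TATA box core, 7.15% the E-box, 35.7% the GC box core, 1.79% the cyclic AMP response element, 49.6% the SMAD-binding element core and 37.4% CCAAT. The matches describe these letters and no binding was measured.

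The ligand genes differed among themselves. Tgfb1 (gene ID 21803, chromosome 7, 25687002 to 25705077, plus strand, GRCm38), which encodes the most widely studied isoform, had 3680 counts (36.3 CPM) in siBcat1, against 4984 counts (37.9 CPM) in siControl. Its log2 fold was -0.06 [-0.12 to -0.00], and its sign was positive under upper-quartile scaling (0.07). Both libraries thus held Tgfb1 at nearly the same scaled level. After length adjustment Tgfb1 had -0.19, because its short transcript lay where the trend was above 0 (0.13).

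Tgfb2 (21808, chromosome 1, 186622792 to 186705989, minus strand), the isoform needed for heart septation and valve formation in mouse embryos, had 3630 counts (35.8 CPM) in siBcat1, against 11162 counts (84.9 CPM) in siControl. Its log2 fold was -1.24 [-1.30 to -1.19], which is 42.2% of the siControl level, and 8.27% of all genes had a lower fold. Tgfb3 (21809, chromosome 12, 86056745 to 86079041, minus strand), the isoform needed for palate fusion in mouse embryos, had 9246 counts (91.3 CPM) in siBcat1, against 26512 counts (202 CPM) in siControl. The log2 fold of -1.14 [-1.18 to -1.11] corresponds to 45.2% of the siControl level. Tgfb2 and Tgfb3 were lower to a like degree, whereas the length trend at their transcripts was -0.57 and -0.21. Length-adjusted they had -0.68 and -0.94, so Tgfb3 was the lowest ligand gene on that scale and neither was 2-fold lower.

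Ratios between genes of the same library need no library scaling. The count ratio of Tgfb2 to Tgfb1 was 0.986 in siBcat1 and 2.24 in siControl, a change to 0.440 times [0.416 to 0.466]. For Tgfb3 to Tgfb1 the ratio was 2.51 in siBcat1 and 5.32 in siControl, a change to 0.472 times [0.450 to 0.496]. Tgfb2 to Tgfb3 changed to 0.933 times [0.892 to 0.975], a far smaller difference, and it was 1.20 times after length adjustment. The changes against Tgfb1 were 0.717 times for Tgfb2 and 0.597 times for Tgfb3 after length adjustment, so that both stayed below 1.

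In the deposited TPM (abundances scaled for length and depth), which allow levels to be compared between genes, Tgfb3 was the most abundant ligand transcript of both libraries. It stood at 39.4 TPM in siBcat1 and 124 TPM in siControl. Tgfb1 stood at 24.4 TPM in siBcat1 and 36.2 TPM in siControl, and Tgfb2 at 10.2 TPM in siBcat1 and 34.4 TPM in siControl. Tgfb1 and Tgfb2 were therefore near each other in siControl and apart in siBcat1. Summed over the 3 genes, ligand transcripts were 74.0 TPM in siBcat1 and 194 TPM in siControl, or 38.1% of the siControl level, while the median gene stood at 67.6% on the TPM scale. Tgfb1 made up 33.0% of ligand TPM in siBcat1 and 18.6% in siControl. Tgfb2 made up 13.8% in siBcat1 and 17.7% in siControl, and Tgfb3 53.2% in siBcat1 and 63.7% in siControl.

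**Figure D2:**
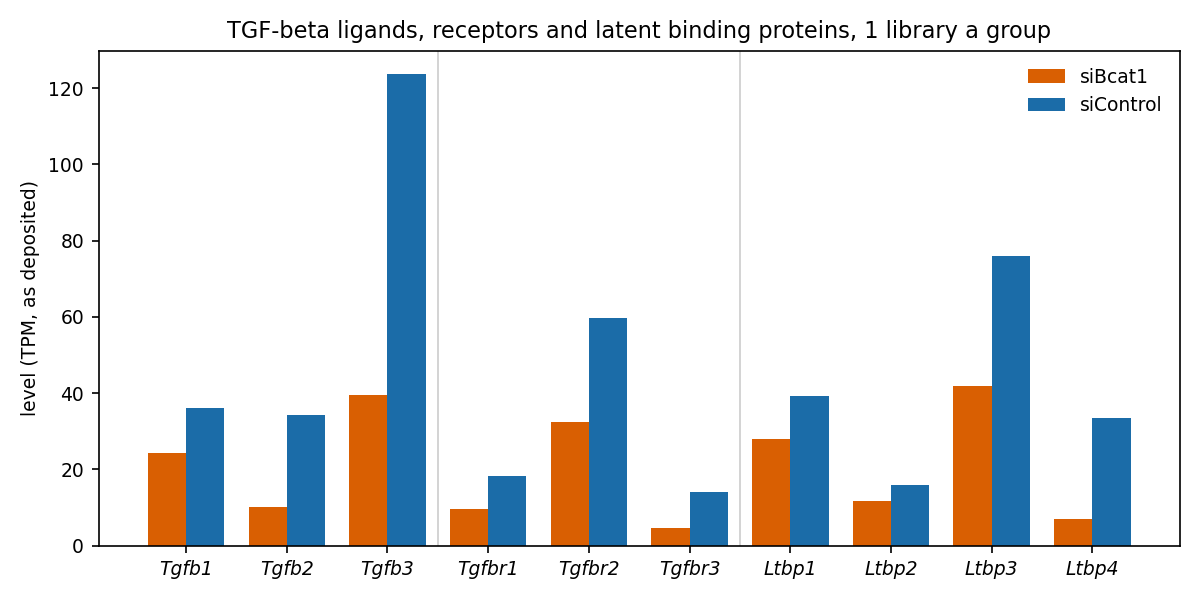
Deposited TPM of each gene in the siBcat1 library (left bar of each pair) and the siControl library (right bar), with 1 library a group and so no error bars. All siBcat1 bars are lower, as the TPM of the median gene were, with the largest difference in TPM at Tgfb3 (39.4 in siBcat1 against 124 in siControl) and the lowest ratio at Ltbp4 (6.89 in siBcat1 against 33.6 in siControl).

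Among the receptors, the 2 signalling receptor genes had like folds in scaled counts and the co-receptor gene had a lower one. Length-adjusted with annotated length, Tgfbr1 (-0.36) and the co-receptor gene Tgfbr3 (-0.34) were alike and Tgfbr2 (0.32) lay above them. With the length implied by counts and TPM, Tgfbr3 (-0.35) was again below Tgfbr1 (0.25) and Tgfbr2 (0.12). Tgfbr1 (21812, chromosome 4, 47353222 to 47414931, plus strand), the type I receptor kinase that phosphorylates SMAD2 and SMAD3, had 3838 counts (37.9 CPM) in siBcat1, against 6687 counts (50.9 CPM) in siControl. Its log2 fold was -0.43 [-0.48 to -0.37], -0.36 length-adjusted and 0.25 when the length implied by counts and TPM was used instead of the annotated one. Tgfbr2 (21813, chromosome 9, 116084293 to 116175360, minus strand), the type II receptor that binds the ligand first, had 10673 counts (105 CPM) in siBcat1, against 17932 counts (136 CPM) in siControl. The log2 fold was -0.37 [-0.41 to -0.34], and the sign turned after length adjustment (0.32). Neither gene reached 2-fold on any scale tried.

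Tgfbr3 (21814, chromosome 5, 107106570 to 107289629, minus strand) encodes betaglycan, a proteoglycan that presents ligand to the type II receptor and is the main route by which TGF-beta 2 gains affinity for it. It had 1962 counts (19.4 CPM) in siBcat1, against 5387 counts (41.0 CPM) in siControl. The log2 fold of -1.08 [-1.16 to -1.01] put it at 47.3% of the siControl level. It is the gene just inside the 2-fold limit, and -0.95 under upper-quartile scaling lay outside. The trend at its transcript of 6087 bases was -0.74, and the length-adjusted fold was -0.34. The 6 smooth muscle and pericyte markers, none at 0, summed to 34.7 CPM in siBcat1 and 94.0 CPM in siControl, and their part in the Tgfbr3 value was not tested. Notch3 made up most of that sum, with 26.5 CPM in siBcat1 and 80.1 CPM in siControl. Cspg4, Myh11 and Des were lower too, with 1.13, 0.326 and 3.52 CPM in siBcat1, against 5.07, 1.07 and 5.39 CPM in siControl. Higher were Rgs5, with 2.61 CPM in siBcat1 and 2.15 CPM in siControl, and Kcnj8, with 0.573 CPM in siBcat1 and 0.167 CPM in siControl.

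The count ratio of Tgfbr1 to Tgfbr2 was 0.360 in siBcat1 and 0.373 in siControl, a change to 0.964 times with an interval that holds 1 [0.921 to 1.01]. After adjustment it was 0.622 times with annotated length and 1.09 times with implied length, so its direction depended on the length used. The ratio of Tgfbr3 to Tgfbr2 was 0.184 in siBcat1 and 0.300 in siControl, a change to 0.612 times [0.578 to 0.648], and 0.634 times after length adjustment. Tgfbr3 was thus lower relative to Tgfbr2 on both scales. Tgfbr2 was the most abundant receptor transcript, at 32.5 TPM in siBcat1 and 59.6 TPM in siControl. Tgfbr1 stood at 9.64 TPM in siBcat1 and 18.4 TPM in siControl, and Tgfbr3 at 4.65 TPM in siBcat1 and 14.0 TPM in siControl. Tgfbr3 made up 9.94% of receptor TPM in siBcat1 and 15.2% in siControl.

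The 4 latent binding proteins had the widest spread of any class, with 1 gene 2-fold lower and 3 near the median of all genes or slightly below it. Ltbp4 (108075, chromosome 7, 27305136 to 27337692, minus strand) encodes a protein that binds only the TGF-beta 1 complex and also organizes elastic fibres. It had 2403 counts (23.7 CPM) in siBcat1, against 10814 counts (82.3 CPM) in siControl. Its log2 fold was -1.79 [-1.86 to -1.73], or 28.8% of the siControl level, and 3.16% of all genes had a lower fold. It had -1.22 length-adjusted and -1.61 on the TPM scale relative to the median of all genes, and it was the only one of the 10 genes that stayed at least 2-fold lower in every setting tried. In TPM it stood at 6.89 in siBcat1 and 33.6 in siControl, and its share of latent binding protein TPM was 7.79% in siBcat1 and 20.4% in siControl.

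Ltbp1 (268977, chromosome 17, 75005568 to 75392512, plus strand), the founding member, which binds all 3 latent ligands, had 12079 counts (119 CPM) in siBcat1, against 15930 counts (121 CPM) in siControl. Its log2 fold of -0.02 [-0.06 to 0.01] was the closest to 0 of the 10, and its sign was positive under upper-quartile scaling (0.10). Ltbp2 (16997, chromosome 12, 84783212 to 84876532, minus strand), which does not bind latent TGF-beta and works in microfibrils, had 5377 counts (53.1 CPM) in siBcat1, against 6678 counts (50.8 CPM) in siControl. It was the only gene with a positive log2 fold, 0.06 [0.01 to 0.12], and this became -0.03 when library totals were used for scaling. Both genes have long transcripts, where the trend was -0.71 and -0.82, and length-adjusted they had 0.69 and 0.88. Ltbp2 reached 1.01 when GC content was removed as well, past 2-fold.

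Ltbp3 (16998, chromosome 19, 5740904 to 5758532, plus strand), which also binds all 3 latent ligands, had 15063 counts (149 CPM) in siBcat1, against 25021 counts (190.4 CPM) in siControl. Its log2 fold was -0.36 [-0.39 to -0.33], with the opposite sign after length adjustment (0.23). The Ltbp2 exons share 764 bases with the antisense gene D030025P21Rik, which had 204 counts in siBcat1 and 71 in siControl, and whether strand was used in counting is not given in the labels. In TPM, Ltbp3 was the most abundant of the class, at 41.9 in siBcat1 and 76.1 in siControl. Ltbp1 stood at 28.0 TPM in siBcat1 and 39.2 TPM in siControl, and Ltbp2 at 11.7 TPM in siBcat1 and 16.0 TPM in siControl.

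Relative to Tgfb1 in the same library, Ltbp4 changed to 0.301 times [0.283 to 0.320] and Ltbp3 to 0.815 times [0.778 to 0.855]. Ltbp1 changed to 1.03 times with an interval that holds 1 [0.978 to 1.08], and Ltbp2 to 1.09 times [1.03 to 1.15]. The Ltbp4 ratio was 0.490 times after length adjustment and so kept its direction, whereas that of Ltbp3 turned to 1.34 times. Ltbp1 and Ltbp2 had 1.85 and 2.11 times. Ltbp1 relative to Ltbp3, which are nearer in length, changed to 1.26 times [1.22 to 1.30] and to 1.38 times after length adjustment.

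**Figure D3:**
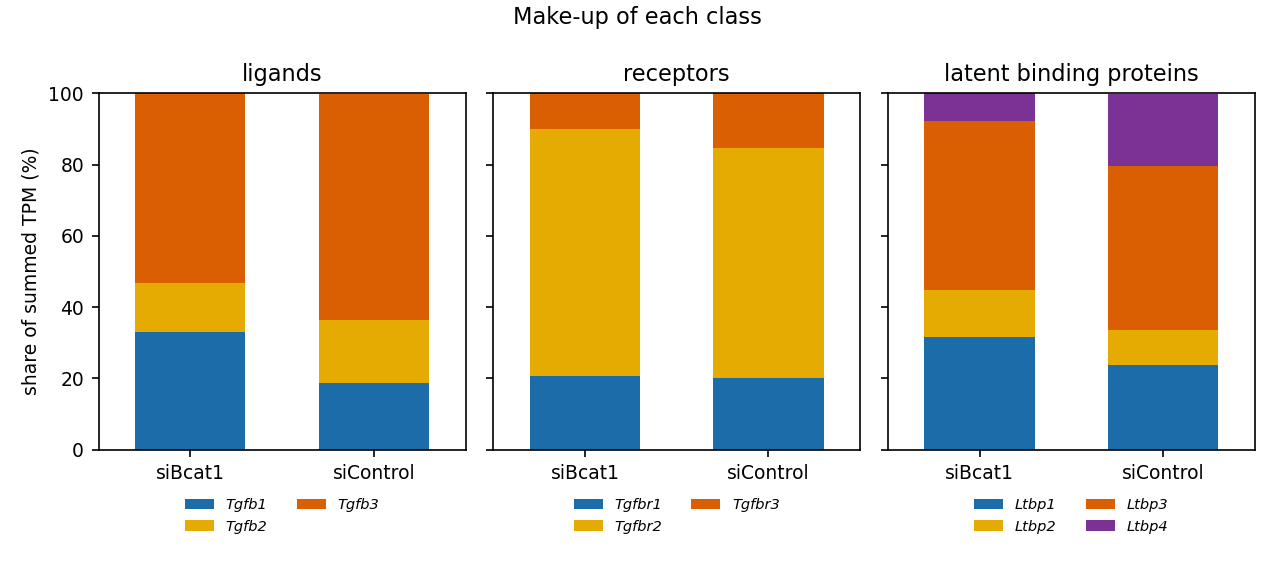
Share of each gene in the summed TPM of its class, in percent, in the siBcat1 library (left) and the siControl library (right). Tgfb1 takes 33.0% of ligand TPM in siBcat1 against 18.6% in siControl, and Ltbp4 takes 7.79% of latent binding protein TPM in siBcat1 against 20.4% in siControl.

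Across classes, the summed TPM of the ligands was the lowest relative to siControl, and Tgfb3 made up 63.7% of that sum in siControl. Without Tgfb3, ligand TPM summed to 34.6 in siBcat1 and 70.6 in siControl, which is 49.1% and near the share of the receptors. Receptor TPM summed to 46.8 in siBcat1 and 92.0 in siControl, which is 50.8%, and latent binding protein TPM to 88.5 in siBcat1 and 165 in siControl, which is 53.7%. Both shares and the 38.1% of the ligands lay below the 67.6% of the median gene, with no adjustment of the folds for transcript length. Length-adjusted with annotated length, the median log2 fold was -0.68 for the ligand genes and -0.34 for the receptor genes. For the latent binding protein genes it was 0.46, with 3 of 4 above 0, so this class was not lower than the typical gene on that scale. Of the 3 receptor genes, 1 lay above 0 with annotated length and 2 with the length implied by counts and TPM. The direction of the receptor class thus depended on the length used. With implied length, 0 ligand genes and 3 latent binding protein genes lay above 0. The 3 binding proteins that attach to latent ligand (Ltbp1, Ltbp3 and Ltbp4) had 1.04 TPM for each TPM of ligand in siBcat1 and 0.767 in siControl. Ligand TPM for each TPM of Tgfbr2 was 2.28 in siBcat1 and 3.26 in siControl. Ordered by TPM, Ltbp3 came first and Tgfb3 next in siBcat1, while Tgfb3 came first and Ltbp3 next in siControl. Tgfbr2, Ltbp1 and Tgfb1 held the next places in both libraries, and Tgfbr3 was last in both. Ltbp4 was at place 9 in siBcat1 and place 7 in siControl, and Ltbp2 at place 6 in siBcat1 and place 9 in siControl. With 1 library a group there is no spread to say which neighbours in this order differ.

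The folds from counts and TPM differed mainly by a shift of all genes. On the log2(TPM + 1) scale the middle fold of the 9935 genes was -0.52, against -0.06 from counts. Relative to that median the 10 genes ran from -1.61 (Ltbp4) to 0.11 (Ltbp2), Tgfbr3 had -0.89 and so was not 2-fold lower, and Ltbp1 had 0.05. The ratio of counts to TPM, which would move if long and short transcript forms were used differently, departed from that of the median gene by -0.04 on the log2 scale at Ltbp1, which has 7 RefSeq transcripts, and by -0.01 at Ltbp4, which has 3. It departed by less at the other 8 genes. Of these, Tgfb1, Tgfb3, Tgfbr3, Ltbp2 and Ltbp3 have only 1 RefSeq transcript each, so their ratio could not show a change of form. The gene totals do not show the transcript forms themselves.

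**Figure D4:**
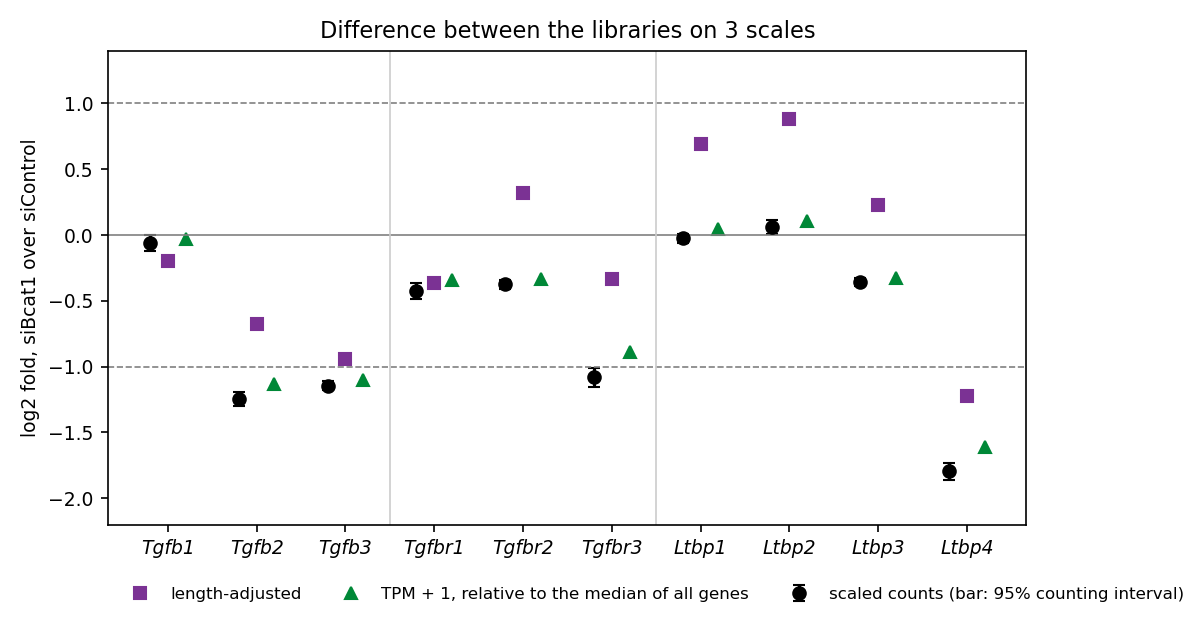
Log2 fold of siBcat1 over siControl for each gene from scaled counts (circles, with exact 95% counting intervals), length-adjusted (squares) and from TPM relative to the median of all genes (triangles). Dashed lines mark 2-fold. The circles of Tgfb2, Tgfb3, Tgfbr3 and Ltbp4 lie below the lower line, and only the square of Ltbp4 does.

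Genes that store, free or anchor latent TGF-beta had the lowest median fold of the 4 other lists of pathway genes. Of 21 genes listed, 18 were measured. At least 2-fold lower were 7, 11 lay within 2-fold and none was higher, beside 13.0% of all genes lower and 5.58% higher. The median log2 fold was -0.90, against -0.06 for all genes. Length-adjusted, 4 were at least 2-fold lower, beside 5.29% of all genes, and the median was -0.53, against 0.00 for all genes. Fbn2, a fibrillin, had 258 counts in siBcat1 and 3384 in siControl, a log2 fold of -3.34 [-3.53 to -3.15] and -2.10 length-adjusted. Itgb8, the subunit of the integrin that frees TGF-beta by binding its propeptide, had 388 counts in siBcat1 and 3608 in siControl, a log2 fold of -2.84 [-3.00 to -2.69] and -1.83 length-adjusted. Fbn2 and Itgb8 met the minimum of 5 CPM on average only through siControl, where they had 25.7 and 27.5 CPM. In siBcat1 they had 2.55 and 3.83 CPM. Both are among the 7 lower genes and among the 4 that were lower length-adjusted, so the filter favoured their being counted as lower. Tgm2, the transglutaminase that crosslinks latent binding proteins to the matrix, had -2.03 [-2.10 to -1.97] and -1.77 length-adjusted. Fn1, the fibronectin that holds latent complexes, had -2.02 [-2.02 to -2.01] and -1.07 length-adjusted. Itgb6, Mmp9 and Nrros lay below the minimum.

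Co-receptors and ligand-binding proteoglycans had 9 of 10 genes measured. At least 2-fold lower were 2, beside 13.0% of all genes, and the other 7 lay within 2-fold. Their middle log2 fold was -0.45, also -0.45 length-adjusted. Cd109, a membrane protein that binds TGF-beta and lowers its signal, had -1.29 [-1.33 to -1.24] and -0.58 length-adjusted. Fmod, the collagen- and TGF-beta-binding proteoglycan fibromodulin, had -1.28 [-1.35 to -1.20] and -1.14 length-adjusted. Bgn, the proteoglycan biglycan, had -0.83 and Eng, the co-receptor endoglin, had -0.73, with -0.89 and -0.52 length-adjusted.

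SMADs and feedback genes were nearer to the rest of the table. All 18 listed genes were measured. Past 2-fold were 4, all lower, beside 13.0% of all genes, and 14 lay within it. The list's median log2 fold was -0.19. On the length-adjusted scale the median was 0.01, with 2 genes lower and 1 higher past 2-fold, beside 5.29% and 4.17% of all genes. Ldlrad4, an inhibitor of SMAD activation, had -1.38 [-1.47 to -1.28] and Smurf1, a ubiquitin ligase that removes the type I receptor, had -1.37 [-1.42 to -1.32], with -1.42 and -1.01 length-adjusted. Skil, a SMAD-binding repressor, had -1.29 and Trim33, a ubiquitin ligase that binds SMADs, had -1.06. Length-adjusted, Skil and Trim33 had -0.48 and -0.20.

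Target genes of TGF-beta in fibroblasts were divided. Of 20 listed, 18 were measured. Past 2-fold were 5 lower genes and 1 higher gene, beside 13.0% of all genes lower and 5.58% higher, and 12 lay within it. The list's median log2 fold was -0.47. On the length-adjusted scale the median was -0.20, with 2 genes lower and none higher past 2-fold, beside 5.29% and 4.17% of all genes. Skil, Smad7 and Pmepa1 are also in the feedback list, and Fn1 is in the storage list. The collagen genes Col1a1 and Col1a2 had -1.35 and -1.28, with -0.63 and -0.67 length-adjusted, and Postn, the matricellular protein periostin, had -1.19 and -1.04. Cdkn2b, a cell cycle inhibitor induced by TGF-beta, was the higher gene, with 5780 counts in siBcat1 and 3195 in siControl, a log2 fold of 1.23 [1.17 to 1.29] and 0.76 length-adjusted. The members of this list thus lay on both sides of 0. Comp and Il11 lay below the minimum and are not in these numbers. Il11 had 368 counts (3.63 CPM) in siBcat1 and 83 counts (0.632 CPM) in siControl, a log2 fold of 2.52 [2.18 to 2.89]. Comp had 306 counts (3.02 CPM) in siBcat1 and 537 counts (4.09 CPM) in siControl, a log2 fold of -0.44 [-0.64 to -0.23].

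**Figure D5:**
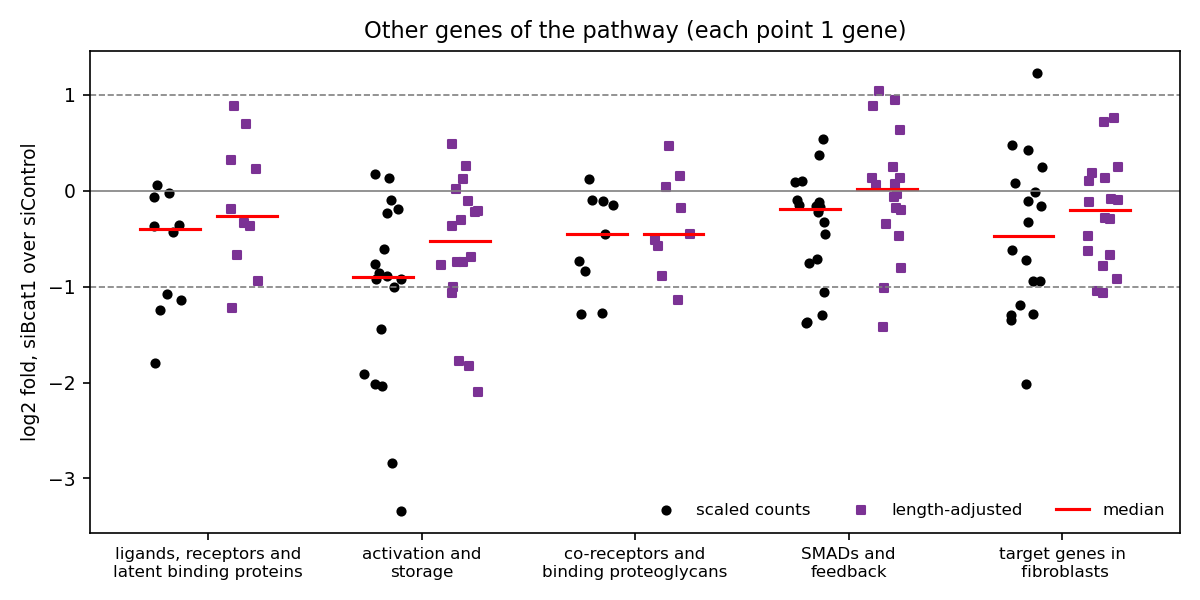
Log2 fold of siBcat1 over siControl of the measured genes in the ligand, receptor and binding protein set and in 4 other lists of the pathway, each point 1 gene, from scaled counts (circles) and length-adjusted (squares). Red lines are medians. Storage genes have the lowest median on both scales (-0.90 and -0.53).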

How the data were processed

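Messenger RNA of 2 libraries, 1 per group, was grouped by the treatment label. Libraries were made with a stranded mRNA kit, per the labels' protocols. FastQC, Trimmomatic, HISAT2, StringTie and build mm10 are named without versions, per the submitters' processing notes, and no source used here gives counting settings or strand use. The deposited count table holds raw reads per gene, and the TPM were computed by the authors, per the file headers.

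The 10 genes, the pathway and marker lists and the named genes were chosen with earlier results of these data known. Named genes are the 10 members, Bcat1 and the 4 measured genes of each pathway list with the largest absolute log2 fold, taken list by list without repeats of a gene. Marker genes, the unmeasured list genes and the antisense gene were named after their values were seen. Counts were scaled with TMM factors (edgeR 4.0.16 in R 4.3.3), 0.969 for siBcat1 and 1.03 for siControl, so that 1 CPM was 101 counts in siBcat1 and 131 in siControl. Log2 folds have exact Clopper-Pearson 95% intervals, and changes of ratios have 95% intervals from the log odds ratio. Both cover counting error only. A gene is called measured at a mean of at least 5 CPM. Lengths are medians over the GENCODE M21 transcripts on GRCm38 that share a RefSeq accession with the gene, and the trend is a lowess with a fraction of 0.3 and 3 iterations (statsmodels 0.14.6). Other scalings tried were upper-quartile factors, library totals and the size factors of DESeq2 1.42.0. TPM folds used pseudocounts of 1 and 0.1. Other filters were 1 CPM, 20 CPM and no filter (prior count 0.5), other thresholds were 3-fold, 1.5-fold and an interval wholly past 2-fold, and there were 3 length corrections. Calculations were tested on simulated data.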

Additional observations from a re-analysis of the deposited data

How the results depend on the processing

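The number of genes at least 2-fold lower was 4 and went to 1 (Ltbp4) at a 3-fold threshold and under each of the 3 length corrections, where Tgfb2, Tgfb3 and Tgfbr3 no longer reached 2-fold. It was 3 with upper-quartile factors and 3 with TPM at pseudocount 1 relative to the median of all genes, in both without Tgfbr3 (-0.95 and -0.89). With annotated length it was 1, with the length implied by counts and TPM 1, and with length and GC content 1. The number at least 2-fold higher was 0 and became 1 (Ltbp2) with length and GC content. The median log2 fold of -0.40 became -0.49 with library totals, -0.27 with upper-quartile factors, -0.86 and -0.90 with TPM at pseudocounts of 1 and 0.1, and -0.34 for both relative to the median of all genes. It was -0.27 length-adjusted, -0.044 with implied length and -0.22 with length and GC content. Scaling moved the median of all genes by 0.13 with upper-quartile factors. Tgfb2, Tgfb3, Tgfbr3 and Ltbp4 had negative values in all settings that gave a fold. The comparisons with TPM or length-adjusted ratios and named genes were chosen after seeing the data. No paired analysis was possible because each group has 1 library. With 1 library a group, differences between cultures cannot be told apart from those of the siRNA.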
